A study of Mus musculus with 17 samples.

Results

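The airway secretory cell genes described here are 10 genes whose products are made by club cells and other secretory cells of the airway lining: Bpifa1, Bpifb1, Scgb1a1, Scgb3a1, Scgb3a2, Cyp2f2, Reg3g, Cbr2, Aldh1a1 and Sec14l3. Every probe set that the platform annotation assigns to exactly 1 of them was taken, which gave 13 probe sets, and all 10 genes were among the 13390 genes tested of 18193 with a probe set of their own. Bronchoalveolar lavage cells of A/J mice (a strain in which lung tumours arise readily) were measured on 17 Affymetrix Mouse430_2 arrays, 6 from untreated controls of matched age and 11 from mice treated with urethane (ethyl carbamate), a chemical used to raise lung tumours in mice. The labels give no urethane dose, time or age, and nothing in them states that 1 number means 1 mouse. The p-values therefore rest on the variation between samples, which may be technical in part. Arrays are named here by the number in their label, and control 6_13 carries 2 numbers.

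The airway epithelium is a sheet of ciliated, secretory and basal cells. Club cells, the main secretory cells of the small airways of the mouse, release secretoglobins into the lining fluid and carry enzymes that oxidise inhaled compounds, and secretory cells of the nose, trachea and large airways release antimicrobial proteins of the BPI fold family. Lavage fluid crosses these surfaces on its way to and from the alveoli, where macrophages are the main free cells. Signals of epithelial genes in lavage come from RNA pooled over all cells recovered, so fewer cells of a type and less RNA per cell cannot be told apart.

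The source label is lavage cells, although the description label of the same arrays speaks of lung tissue. All 17 alveolar macrophage markers tested, Siglecf, Marco and Chil3 among them, exceeded the 40th percentile of signals on each of the 17 arrays. The signals of that list summed to between 283835 and 335329 in controls and between 242049 and 345765 after urethane. Lung tissue also holds these macrophages, so the markers cannot tell the 2 labels apart, and the source label was followed. Scanning took place on 2 days, each with a chip lot of its own, with 2 control and 5 urethane arrays on scan day 1 and 4 control and 6 urethane arrays on scan day 2. The 20th percentile signal, a measure of the low end of an array, ran from 15.7 to 28.4 in controls and from 9.49 to 66.2 after urethane, with urethane 33, 36 and 35 highest. Its part in the results below was not tested beyond the settings that adjust for it or leave those arrays out. The number of arrays limits the precision.

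Most of the secretory genes were lower in the lavage cells of urethane-treated mice. Of the 10 genes 6 fell (Bpifa1, Cyp2f2, Aldh1a1, Scgb3a2, Scgb1a1 and Bpifb1), 0 rose and 4 (Reg3g, Cbr2, Scgb3a1 and Sec14l3) did not pass an adjusted p of 0.05 in limma. Over all 13390 genes 1.14% were called lower and 2.00% higher. The median log2 difference, urethane minus control, was -1.28 over the 10 genes and -0.03 over all genes tested. The signals of the 10 genes summed to between 10487 and 39297 on the control arrays and to between 3669 and 13405 on the urethane arrays. Scgb1a1 and Bpifa1 made up 40.4% to 67.1% of these sums, and the other 8 genes summed to 3448 to 15450 and to 1423 to 5698. At an unadjusted p of 0.05 the count was 9 of 10 lower and 0 higher, beside 6.95% of all genes lower. The count was 3 (Bpifa1, Cyp2f2 and Aldh1a1) without control 35, without control 37 or without urethane 32, while the share of all genes called lower went from 1.14% to 0.515%, 0.695% and 0.829%. Without urethane 32 the genes no longer called still differed by -0.99 (Bpifb1), -1.24 (Scgb1a1) and -1.41 (Scgb3a2). The genes had been chosen with earlier results of these arrays known, so their count is no independent sign of a direction.

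**Figure D1:**
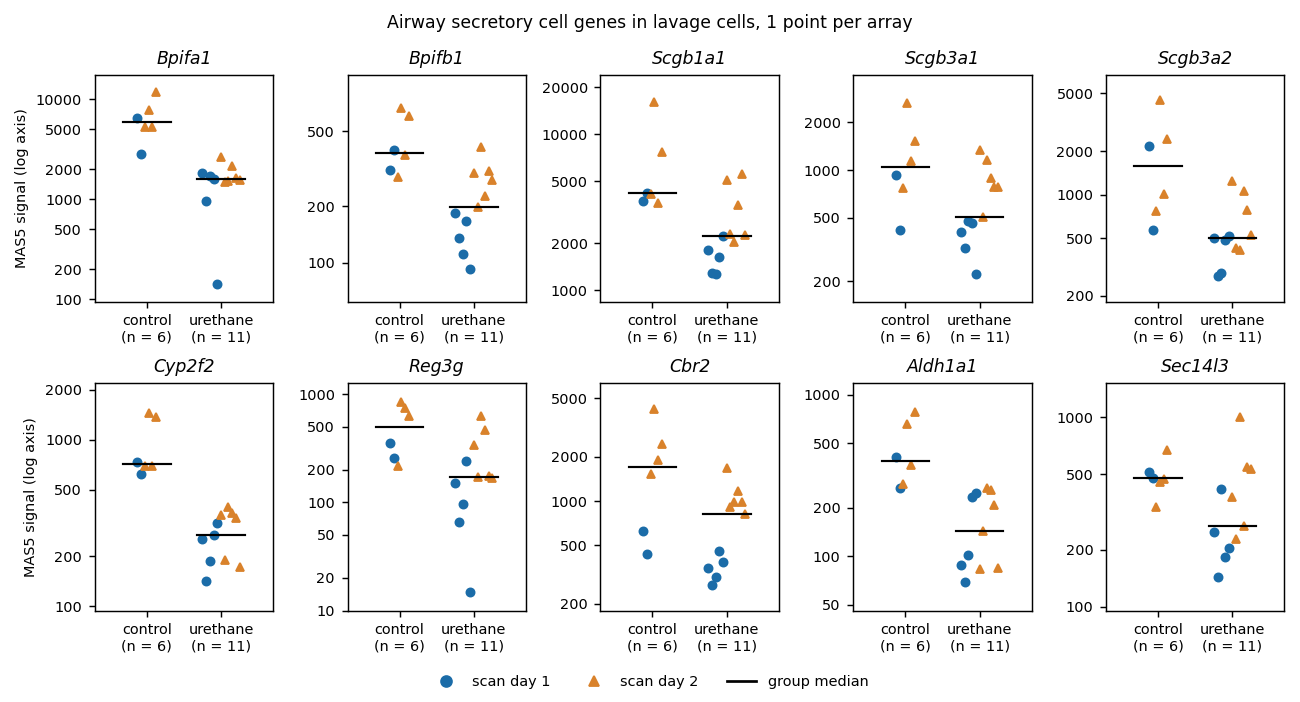
Deposited MAS5 signal (log axis) of the 10 airway secretory cell genes, 1 point per array, by group and scan day, with the group median as a line and the probe set of highest mean shown for each gene. All urethane arrays lie below all control arrays for Bpifa1 and Cyp2f2, and the groups overlap for the other 8 genes.

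Bpifa1 encodes a small secreted protein of the upper and large airways that binds bacterial products and lowers surface tension. Its signal was 2824, 5908 and 11764 (lowest, median and highest) on the control arrays and 142, 1612 and 2618 on the urethane arrays. All 11 urethane arrays lay below all 6 controls. Complete separation in this direction held for 2 of the 10 genes, Bpifa1 and Cyp2f2, and for 0.202% of all genes. On the log2 scale of signal plus 17.1, Bpifa1 had a control mean of 12.55 ± 0.68 (SD, n = 6) and a urethane mean of 10.41 ± 1.08 (SD, n = 11), and so differed by -2.15 (SE 0.41, limma adjusted p = 0.00474), 4.43-fold lower. The lowest value belonged to urethane 9, at 142, while the next lowest urethane array, urethane 5, was at 954. Without urethane 9 the log2 difference was -1.84 (limma adjusted p = 5.4e-05).

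Bpifb1 encodes a longer relative of Bpifa1 made by secretory cells of the large airways, and 2 probe sets measure it. The brighter one, 1439423_x_at, has a suffix that marks probes shared with other sequences. It gave signals of 285, 383 and 665 in controls and 93, 197 and 409 after urethane. The groups overlapped, since urethane 33 was at 409, while 8 of 11 urethane arrays lay below the lowest control. Its log2 difference of -0.99 (SE 0.26) passed in the fit over genes (limma adjusted p = 0.0409) but not in the fit over all 24468 probe sets (limma adjusted p = 0.0554). The other probe set, 1423719_at, differed by -0.72 (SE 0.40, limma adjusted p = 0.460), and all but 2 of its control values (control 35 at 658 and control 37 at 532) lay inside the urethane range of 60 to 442. The call of Bpifb1 was lost on leaving out any 1 of 10 arrays (control 6_13, 14, 35 or 37, or urethane 5, 7, 8, 9, 32 or 34), with limma adjusted p from 0.0501 to 0.132.

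Secretoglobins are small secreted proteins that are among the most abundant products of club cells. Scgb1a1, the club cell secretory protein, had signals of 3600, 4182 and 16069 in controls and 1266, 2227 and 5582 after urethane. Control 35 (16069) and control 37 (7740) stood above every urethane array, and the other 4 controls, from 3600 to 4215, lay inside the urethane range because of urethane 31 (5089) and urethane 35 (5582). Scgb1a1 fell by 1.24 in log2 (SE 0.33, limma adjusted p = 0.0373), 2.36-fold, from 12.44 ± 0.85 (SD, n = 6) to 11.20 ± 0.71 (SD, n = 11).

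Scgb3a2 had signals of 566, 1584 and 4498 in controls and 273, 505 and 1233 after urethane, and 8 of 11 urethane arrays lay below the lowest control. It fell by 1.45 in log2 (SE 0.36, limma adjusted p = 0.0304), 2.72-fold. Scgb3a1, which is found more in the larger airways, had signals of 422, 1039 and 2662 in controls and 222, 506 and 1334 after urethane, with 3 of 11 urethane arrays below the lowest control. Its log2 difference was -0.83 (SE 0.35, 95% interval -1.56 to -0.11, limma adjusted p = 0.244), which did not pass. For all 3 secretoglobins control 35 was the highest of the 17 arrays, and without it the log2 differences were -0.93 for Scgb1a1, -1.13 for Scgb3a2 and -0.57 for Scgb3a1, and 0 of the 3 passed (limma adjusted p = 0.124, 0.101 and 0.533). The call of Scgb1a1 was also lost without control 14, 33 or 37 or urethane 5, 7, 8, 32, 33 or 36, and that of Scgb3a2 without control 6_13 or 37 or urethane 32 (highest limma adjusted p = 0.0937 and 0.0829).

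Among the enzymes, Cyp2f2, a cytochrome P450 of mouse club cells known for oxidising naphthalene, had the smallest p of the 10 genes. Its signal was 626, 716 and 1460 on the control arrays and 141, 266 and 397 on the urethane arrays. The groups did not overlap. In log2 Cyp2f2 averaged 9.80 ± 0.53 (SD, n = 6) in controls against 8.10 ± 0.47 (SD, n = 11) after urethane, and so was 3.25-fold lower, at -1.70 (SE 0.23, limma adjusted p = 1.8e-04). Over 33 other settings its difference stayed between -1.81 and -1.52 and its adjusted p at or under 0.00426.

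Aldh1a1, a retinaldehyde dehydrogenase that makes retinoic acid, had signals of 263, 388 and 784 in controls and 69, 144 and 264 after urethane. Only urethane 33, at 264, exceeded the lowest control, control 14 at 263. It fell by 1.44 in log2 (SE 0.31, limma adjusted p = 0.00942), 2.72-fold. Aldh1a7 is a close paralogue in the mouse, and how far its transcript binds these probes was not tested.

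Cbr2, a carbonyl reductase abundant in mouse lung and also known from tissue macrophages, had signals of 439, 1715 and 4216 in controls and 270, 812 and 1680 after urethane. In log2 Cbr2 differed by -1.13 (SE 0.42, limma adjusted p = 0.179) and did not pass in the pooled fit. Its level followed the scan day: controls read 439 and 627 on scan day 1 and 1516 to 4216 on scan day 2, and urethane arrays 270 to 461 on scan day 1 and 812 to 1680 on scan day 2. Cbr2 passed once scan day was a block, lower at -0.92 (limma adjusted p = 0.00334), and that fit called 7 of the 10 genes lower, beside 3.44% of all genes.

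Reg3g, a secreted C-type lectin that kills Gram-positive bacteria, had signals of 218, 492 and 838 in controls and 15, 172 and 627 after urethane. The lowest value was again that of urethane 9, at 15 and under the 40th percentile of its array, with urethane 5 next at 66. Its log2 difference of -1.31 (SE 0.47, 95% interval -2.29 to -0.33, limma adjusted p = 0.158) did not pass. Sec14l3, a lipid-binding protein of the SEC14 family found in airway epithelium, has 3 probe sets with log2 differences of -0.54 (1436785_a_at), -1.03 (1436786_at) and -0.97 (1436787_x_at), of which 0 passed in the fit over probe sets (limma adjusted p = 0.463, 0.0725 and 0.225). On 1436785_a_at the highest of the 17 arrays was urethane 33, at 1007 against 335, 475 and 674 in controls, and the difference was -0.92 without urethane 33, 35 and 36 (limma adjusted p = 0.0225). On 1436786_at 7 of 11 urethane arrays lay below the lowest control. Over all probe sets 5 of the 13 were called lower, beside 0.740% of the 24468.

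**Figure D2:**
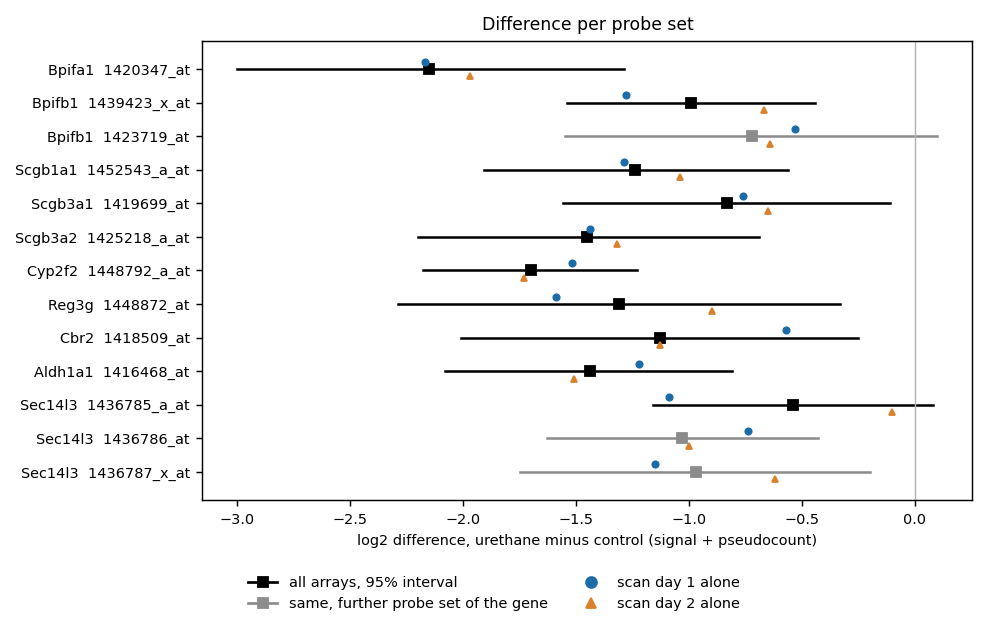
Log2 difference, urethane minus control, for each of the 13 probe sets, with the 95% interval of the fit over all 17 arrays and the values of each scan day alone. The points of both days lie below 0 for every probe set, and the intervals of 1423719_at of Bpifb1 and 1436785_a_at of Sec14l3 include 0.

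Promoter sequences are shown for Bpifa1 and Cyp2f2, the genes whose groups did not overlap, and for Scgb3a1, the one secretoglobin with an entry in the table used. They are from RefSeq, build GRCm38.p6. Among the promoter entries used, 8 of the 10 genes had 10 entries. Scgb1a1 and Scgb3a2 had none there, although both genes are annotated in that build. Each runs 5′ to 3′ on the gene's strand, from 250 bases before the annotated start to 50 after it, with motif matches in capitals. The motifs, searched on both strands, were the forkhead cores TGTTTAC and TGTTTGC, the NKX2-1 core CAAGTG, the C/EBP-like TTGCNNAA and the TATA box TATAAA, since forkhead, NKX2-1 and C/EBP factors are known regulators of lung secretory genes.
Bpifa1, chr2:154142630-154142929, plus strand: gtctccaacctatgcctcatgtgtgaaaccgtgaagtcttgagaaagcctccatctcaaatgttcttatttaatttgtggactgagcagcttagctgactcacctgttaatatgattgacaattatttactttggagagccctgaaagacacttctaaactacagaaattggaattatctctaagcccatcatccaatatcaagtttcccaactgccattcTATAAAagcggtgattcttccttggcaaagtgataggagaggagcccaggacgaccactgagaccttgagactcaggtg
Cyp2f2, chr7:27119705-27120004, plus strand: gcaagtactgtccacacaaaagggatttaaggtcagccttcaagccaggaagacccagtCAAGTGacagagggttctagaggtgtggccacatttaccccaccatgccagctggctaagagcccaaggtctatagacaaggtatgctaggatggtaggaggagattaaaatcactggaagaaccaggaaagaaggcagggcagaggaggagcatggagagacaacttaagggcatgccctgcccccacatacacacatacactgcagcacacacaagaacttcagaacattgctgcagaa
Scgb3a1, chr11:49663345-49663644, plus strand: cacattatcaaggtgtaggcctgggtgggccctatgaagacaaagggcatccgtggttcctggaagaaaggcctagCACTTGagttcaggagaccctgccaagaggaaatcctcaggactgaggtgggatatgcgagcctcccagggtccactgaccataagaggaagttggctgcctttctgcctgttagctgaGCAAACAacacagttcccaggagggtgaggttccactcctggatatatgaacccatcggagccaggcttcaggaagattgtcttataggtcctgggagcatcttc

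In the Bpifa1 window the match is a TATA box that begins at -29 from the start, a motif held by 13.6% of all 32851 promoter entries. The Cyp2f2 window has CAAGTG at -191, a motif held by 13.6% of entries. In the Scgb3a1 window CACTTG, the reverse complement of the NKX2-1 core, begins at -174, and GCAAACA, the reverse complement of TGTTTGC, at -55. TGTTTGC was held by 2 of the 10 entries of these genes (Scgb3a1 and Bpifb1) and by 5.07% of all entries, TGTTTAC by 0 and 3.65%, CAAGTG by 3 and 13.6%, TTGCNNAA by 1 and 10.8%, and TATAAA by 2 and 13.6%. A match is only a run of letters, and no binding was measured.

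Both scan days gave log2 differences below 0 for all 10 genes, which held for 25.1% of all genes tested. Scan day 1 had a median over the 10 genes of -1.28 and scan day 2 one of -1.08, and the medians over all genes were -0.04 and 0.02. Bpifa1 differed by -2.17 and -1.97, Cyp2f2 by -1.52 and -1.73, Scgb3a2 by -1.44 and -1.32, Aldh1a1 by -1.22 and -1.51, and Scgb1a1 by -1.29 and -1.04. Bpifb1 differed by -1.28 and -0.67, Reg3g by -1.59 and -0.90, Scgb3a1 by -0.76 and -0.65, Cbr2 by -0.57 and -1.13, and Sec14l3 by -1.09 and -0.10. The interaction of group and scan day passed for 0 of the 10 genes (lowest limma adjusted p = 0.329, for Sec14l3) and had an unadjusted p under 0.05 for 0 of them, beside 0.0822% and 17.4% of all genes. Scan day 1 alone called 5 of the 10 lower (2.35% of all genes) and scan day 2 alone called 4 (2.39%), and Cyp2f2 was the only one of the 10 called on each day. Groups that did not overlap were seen for 8 of the 10 genes on scan day 1, beside 14.5% of all genes, and for 3 on scan day 2 (Bpifa1, Cyp2f2 and Aldh1a1), beside 3.36%.

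Some levels were also higher on scan day 2 than on scan day 1. With the group as a term, 5 of the 10 genes were higher on scan day 2 (Cbr2, Scgb3a1, Bpifb1, Scgb1a1 and Reg3g) and 0 lower, while genes that differed in either direction were 18.7% of all genes. The difference, scan day 2 minus scan day 1, was 1.74 in log2 for Cbr2 (limma adjusted p = 2.7e-06), 1.17 for Scgb3a1 (0.00114) and 1.28 for Reg3g (0.0184). It was 0.40 for Cyp2f2 (limma adjusted p = 0.176) and 0.33 for Aldh1a1 (0.444), neither of which passed. The days also differed in chip lot and label numbers, and these cannot be told apart.

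The arrays of a group differed among themselves in which secretory genes were high. After the mean of each group and scan day was subtracted, the 45 correlations between the 10 genes over the 17 arrays had a median of 0.43, from -0.14 to 0.89, as a description of arrays that share RNA and scaling. Scgb3a2 correlated at 0.89 with Cbr2 and at 0.79 with Scgb1a1, and Scgb1a1 at 0.77 with Cbr2. Cyp2f2 and Aldh1a1 correlated at 0.75. Bpifa1 correlated at 0.69 with Reg3g and at 0.63 with Scgb3a1, but at 0.03 with Scgb1a1 and at -0.14 with Aldh1a1.

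Urethane 9 weighed on the values of Bpifa1. On that array the log2 deviation from the mean of its group and day was -2.59 for Bpifa1 and -1.73 for Reg3g, whereas it was 0.82 for Aldh1a1, 0.46 for Scgb1a1, 0.46 for Cyp2f2 and 0.36 for Scgb3a2. Without it Bpifa1 correlated at 0.44 with Reg3g, 0.46 with Scgb1a1 and 0.40 with Aldh1a1, and the median of all pairs was 0.56. Control 35 was high instead, with Scgb3a2 at 1.38 and Scgb1a1 at 1.29 above the mean of its group and day and Bpifa1 at 0.13. Without control 35 the median of all pairs was 0.35, and Scgb3a2 still correlated at 0.84 with Cbr2.

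**Figure D3:**
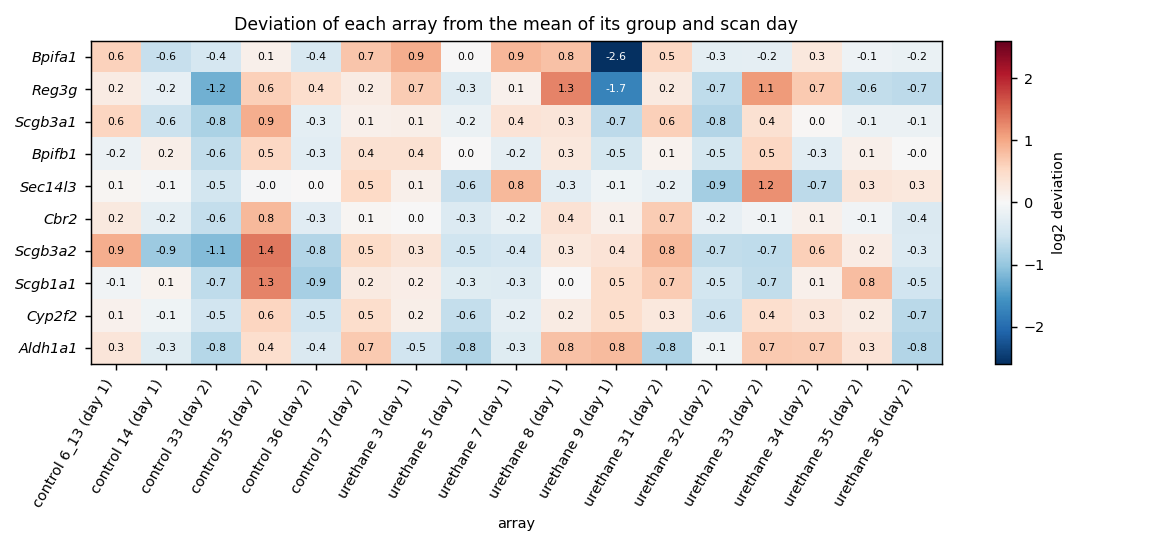
Log2 deviation of each of the 10 genes on each array from the mean of the array's group and scan day, with red above and blue below it. Urethane 9 is low for Bpifa1 (-2.59) and Reg3g (-1.73) and above the mean for Aldh1a1 (0.82), and control 35 is high for Scgb3a2 (1.38) and Scgb1a1 (1.29).

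Of the genes outside the 10, those closest to their mean by Pearson correlation over the 17 arrays, centred the same way, were Fzd8 (0.82), Spef1 (0.79), Gm11190 (0.76), 3300002I08Rik (0.76), Cep131 (0.75), Chaf1b (0.74), 6030458C11Rik (0.74) and Gprasp1 (0.73). These are the highest of 13380 genes, and 0 of these 8 passed between the groups (limma adjusted p from 0.265 to 0.997).

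In a wider list of airway secretory products no tested gene passed between the groups in the fit without scan day. Of 40 genes in this list, which includes mucin, P450, glutathione transferase and antimicrobial genes, 24 were tested, and 0 fell and 0 rose (limma). At an unadjusted p of 0.05, 1 was lower and 1 higher, and the median log2 difference was -0.30. Gsto1, a glutathione transferase, had the smallest p, at -0.36 (SE 0.10, limma adjusted p = 0.0522). Haptoglobin (Hp) was the one at the higher side, named after its value was seen, at 1.31 (SE 0.43, limma adjusted p = 0.118). Both passed in the fit blocked on scan day, Gsto1 as lower (-0.40, limma adjusted p = 0.00158) and Hp as higher (limma adjusted p = 9.9e-04), beside 3.44% of all genes lower and 4.31% higher. Many of these genes were dim: 6 of the 24 exceeded the 40th percentile on every array, against 8 of the 10 secretory genes above. The difference between the lists was not tested. The summed signal of the list was 29762 to 37213 in controls and 28134 to 37266 after urethane. Most of it was that of the glutathione transferases Mgst1 and Gsto1 (66.2% to 85.6%), and the rest summed to 5326 to 7558 and to 5047 to 12614. Median control signals were 19735 for Mgst1 and 8040 for Gsto1, against 4182 for Scgb1a1. Which cells gave the signals of Mgst1 and Gsto1 was not tested.

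Of 14 regulators of airway secretory cells 8 were tested, and the others did not pass the filter. Among the 8, 2 fell and 0 rose, beside 1.14% of all genes lower and 2.00% higher. The median over the 8 was -0.28. The Notch ligand Jag1 fell by 0.66 in log2 (SE 0.15, limma adjusted p = 0.0136), and the transcription factor Cebpa, which macrophages also express, fell by 0.38 (SE 0.10, limma adjusted p = 0.0424). For these 8 regulators the day-wise medians were -0.57 (scan day 1) and 0.10 (scan day 2).

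Single genes of the lists for other epithelial cells were lower as well, beside 1.14% of all genes lower and 2.00% higher. The difference of these lists from the 10 secretory genes was not tested. Of 13 ciliated cell markers tested 1 fell (Tppp3, log2 difference -1.39, SE 0.22, limma adjusted p = 9.3e-04) and 0 rose, with a median of -0.19. Foxj1, the regulator of motile cilia, differed by -0.11 (SE 0.42, limma adjusted p = 0.949) and exceeded the 40th percentile on 2 control and 4 urethane arrays. The summed ciliated signal was 7045 to 9558 in controls and 5078 to 7197 after urethane, of which the tubulin Tubb4b and Tppp3 made up 56.2% to 89.3%. Without both, the list summed to 982 to 2073 in controls and to 643 to 3150 after urethane, and these ranges overlapped. Dnaic1 and Rsph4a were under the 40th percentile on all arrays. Of 12 alveolar type 2 markers 1 fell (Napsa, an aspartic protease that processes surfactant protein, -0.97, SE 0.21, limma adjusted p = 0.0106) and 0 rose, with a median of -0.03 and sums of 55072 to 68676 and 42896 to 58976. The lysozyme Lyz1 made up 79.6% to 89.6% of those sums, and the list without it summed to 7140 to 11366 and to 6227 to 10077. Sftpc, a surfactant protein, differed by 0.22 (SE 0.32, limma adjusted p = 0.831). In the general epithelium list 1 of 16 fell (Epcam, an adhesion molecule of epithelial cells, -1.60, SE 0.30, limma adjusted p = 0.00354) and 0 rose, with a median of -0.05. The sums were 31871 to 44814 and 21362 to 35699, of which Krt19 and Cd24a made up 58.4% to 81.2%. Without both, the list summed to 9424 to 14149 and to 4642 to 9219. The fit blocked on scan day called 2 of the 16 lower, Epcam and Krt19 (-0.69, limma adjusted p = 0.001), beside 3.44% of all genes. That fit called 1 lower in the ciliated list and 1 in the type 2 list. Median control signals were 2772 for Tppp3, 3787 for Tubb4b and 54 for Foxj1. They were 1517 for Napsa and 944 for Sftpc, and 6191 for Epcam and 17633 for Krt19. Which cells gave the signals of Tppp3, Napsa, Epcam and Krt19 was not tested. What part epithelial cell content has in the fall of the secretory genes was not tested.

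Markers of leukocytes moved on the same arrays, where 2.00% of all genes were called higher and 1.14% lower. Of 13 T cell markers 3 rose (Il7r at a log2 difference of 1.67, Ms4a4b at 1.98 and Cd3d at 1.84) and 0 fell. The fit blocked on scan day had 6 higher and 1, Cd2, lower, beside 4.31% and 3.44% of all genes. Cd2 had a log2 difference of -0.90 in that fit (limma adjusted p = 0.00158), against -0.78 and 0.127 without the block. In controls the median signal of Cd2 was 11090, and those of Il7r, Ms4a4b and Cd3d were 668, 117 and 44. Cd3d exceeded the 40th percentile on 1 control and 11 urethane arrays. It passed the filter only through the group where it was high, so its call is no independent sign of a rise. Cd2 made up 31.3% to 94.0% of the summed signal of 9329 to 15685 in controls and 9769 to 13125 after urethane, and without Cd2 the sums were 681 to 5255 and 2013 to 8476. Of 10 neutrophil markers 2 rose (Wfdc21 and, at 1.73, S100a8, with control medians of 6099 and 1444) and 0 fell. Their list had sums of 10094 to 31384 and 18149 to 84259. The sum of 84259 was that of urethane 34, which stood apart, the next highest urethane array being at 34106. Of the 17 alveolar macrophage markers 3 rose (Fabp4, Ctsk and Car4) and 2 fell (Cidec and Fabp1), with a median of -0.00. Siglecf differed by -0.20, Marco by -0.00 and Chil3 by -0.06, and 0 of these 3 passed (limma adjusted p = 0.652, 0.996 and 0.849). The part of these changes in the values of the secretory genes was not tested, nor was which cells gave the signals of Cd2 and Wfdc21.

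**Figure D4:**
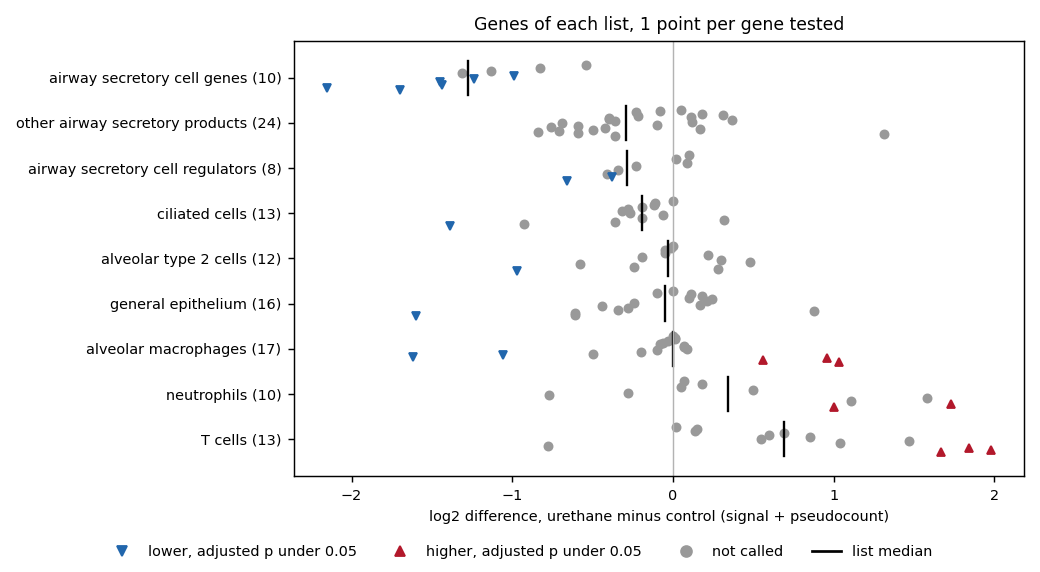
Log2 difference, urethane minus control, of every gene tested in the 9 lists, 1 point per gene, with triangles for genes called at an adjusted p of 0.05 and a line at the list median. The 10 airway secretory cell genes have a median of -1.28, and the 24 other airway secretory products lie around a median of -0.30 with none called in this fit.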

How the data were processed

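Each deposited intensity is a linear MAS5 signal of 1 probe set, with MAS5 named in the submitters' processing notes without a version. Every array had a trimmed mean of 500, so the authors' scaling was kept. The deposited intensity values have 1 decimal place on scan day 2 and more on scan day 1. The deposited scan records gave the scan day and chip lot only.

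Signals were put on the log2 scale after adding 17.1 (the 20th percentile of an array, as a median of 17 arrays), so folds of dim genes are understated. Genes are those of the platform annotation, of which 13321 of the 13390 tested matched a RefSeq gene. Probe sets with 1 gene were kept if above the 40th percentile of the array on at least 6 arrays, and the one of highest mean stood for a gene. The group difference was fitted in R 4.3.3 by limma 3.58.1 (lmFit and trended eBayes). Tests were two-sided, and Benjamini-Hochberg adjustment ran over all genes or probe sets, with a threshold of 0.05. The fit was tested on simulated data with independent noise for each probe set and array. That simulation had no scan day effect, so it does not cover the differences between days in these arrays. The genes and lists were chosen with earlier results of these data known. Named genes were all 10 secretory genes, for each other list its called genes of smallest adjusted p (at most 3) or otherwise that of smallest p, 6 markers (Foxj1, Sftpc, Epcam, Siglecf, Marco, Chil3) and the 8 genes of closest pattern. Hp, Cd2, Dnaic1, Rsph4a and the genes named for their share of a summed signal were named after their values were seen. No 2 arrays held identical values. Figures were drawn with matplotlib 3.10.9.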

Additional observations from a re-analysis of the deposited data

How the results depend on the processing

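Of 33 alternative settings 17 dropped a single array, 15 changed another planned choice, and 1, without urethane 33, 35 and 36, was chosen after seeing the data. The correlations without single arrays were also added then. The count of secretory genes lower, 6, was 3 without a variance trend, and ran from 3 to 6 with 1 array left out. It was at 4 to 7 under every other setting, and 0 rose under any. Cyp2f2 was called under all 33. The count of probe sets lower, 5, was 3 without a variance trend and on scan day 1 alone, 8 with array weights, with scan day as a block and with the Gapdh ratio as a covariate, and 2 to 5 with 1 array left out. The count of other secretory products lower, 0, was 1 with quantile normalization, with the stricter filter of 11 arrays, with scan day as a block, with the Gapdh ratio or the 20th percentile as a covariate, on scan day 1 alone, and 0 to 1 with 1 array left out. The cause of these shifts was not tested. The interaction called 0 of the 10 genes under all 29 settings in which it was run.

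Numbers 33, 35 and 36 occur in both groups, and with them as a replicate block, over those 6 arrays, 6 of 10 secretory genes and 3 of 24 other secretory products were lower, beside 11.6% of all genes. The 6 include Cbr2 (-1.30, limma adjusted p = 5.6e-04) and not Bpifb1 (-0.33, limma adjusted p = 0.446), and Sec14l3 reversed to 0.66 (limma adjusted p = 0.0801). All of these arrays are of scan day 2. Their 20th percentile signals were 20.8, 17.5 and 17.1 in the controls and 66.2, 35 and 41.8 after urethane. Group and low-end signal cannot be told apart there. The deviations of same-numbered arrays correlated at -0.01, -0.16 and -0.17, and those of differently numbered arrays at -0.22 to -0.01. With so few arrays these values cannot decide whether the numbers mark pairs, and they were not taken as pairs.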
